A study of Mus musculus with 7 samples.

Results

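The complement genes described here are the 3 C1q chains C1qa, C1qb and C1qc, the C1 proteases C1s1 and C1ra, the convertase components C3, C4b and Cfb, and the C1 inhibitor Serping1. These 9 genes were chosen by name out of 33710 genes listed, and all 9 were present in each of the 7 libraries. Each library is a Drop-seq library, in which beads tag the mRNA of single cells with a cell barcode and a unique molecular identifier (UMI), and each holds the primary mammary tumor of 1 mouse. All 7 mice form a single control group with the source label MMTV-PyMT; HK2 f/f and the genotype label Wild type, and the labels place sampling 3 months after a tumor could be felt. Thus every animal carried floxed HK2 alleles and the polyoma middle T transgene, which the MMTV promoter drives in mammary epithelium, and the labels do not give the Cre or tamoxifen status of a single animal. The study describes tamoxifen injections after tumor onset for its control mice as well as for mice with Cre. Libraries from mice with HK2 deleted were not analysed here, so the comparisons are between cell classes within these tumors and ask which cells carried the transcripts of each complement gene.

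Complement is a cascade of plasma and tissue proteins. In the classical pathway C1q, assembled from its A, B and C chains, binds antibody complexes or dying cells and activates the protease C1r, which in turn activates C1s, and C1s cuts C4 and C2 to form a C3 convertase. Cleaved C3 coats surfaces and is amplified by factor B in the alternative pathway, and the serpin C1 inhibitor removes active C1r and C1s. The liver supplies most circulating complement, whereas macrophages are a well known source of C1q in tissues and fibroblasts of several other components.

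In the GENCODE M21 annotation of GRCm38 the C1q chain genes lie next to each other on the minus strand of chromosome 4, C1qb at 136880129 to 136886187, C1qc at 136889804 to 136893065 and C1qa at 136895917 to 136898803. C1ra (124512405 to 124523443, plus strand) and C1s1 (124530345 to 124542359, minus strand) are neighbours on chromosome 6. C4b (34728380 to 34743882), Cfb (34856374 to 34862518) and C3 (57203970 to 57228136) lie on the minus strand of chromosome 17, and Serping1 (84765387 to 84775444, minus strand) on chromosome 2. C4b, C1s1 and C1ra have near-identical copies, and 38.1%, 17.96% and 19.1% of the 50-base words in the last 500 bases of their transcripts also occur in C4a, C1s2 and C1rb. Because the copies held 6, 13 and 0 UMIs in all cells, how reads were divided between copies cannot be told from the counts, and the levels of these 3 genes carry that uncertainty. An exon of Cfb overlaps Gm20547 on the same strand, and an exon of C1s1 overlaps Gm16567 on the other strand.

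The bases just upstream of the start are shown for a pair of genes that were high in macrophages (C1qb and C1qc) and a pair that were high in fibroblasts (C1s1 and C3), since the members of each pair moved together across classes. They were read from the RefSeq promoter table (GRCm38.p6), which matched 5 of the 9 genes, and were kept only upstream of both the RefSeq and the outermost GENCODE start, which left 99 bases for C1qc, 250 for the other 3 genes and too few (34) for C1ra to be shown. Each runs 5′ to 3′ on the minus strand of the genome, and capitals mark matches on either strand to AGGAAG, the core bound by ETS factors such as PU.1, or to TTGCNNAA, a core bound by C/EBP factors, with no overlap between the matches. The regions are chr4:136886201-136886450, chr4:136893066-136893164, chr6:124542360-124542609 and chr17:57228137-57228386.
C1qb: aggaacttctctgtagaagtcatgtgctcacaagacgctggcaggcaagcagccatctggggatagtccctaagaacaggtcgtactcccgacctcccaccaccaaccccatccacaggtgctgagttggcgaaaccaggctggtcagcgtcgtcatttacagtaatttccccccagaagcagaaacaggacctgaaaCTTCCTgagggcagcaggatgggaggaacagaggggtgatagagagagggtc
C1qc: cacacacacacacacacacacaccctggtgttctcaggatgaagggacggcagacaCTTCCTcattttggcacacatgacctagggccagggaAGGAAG
C1s1: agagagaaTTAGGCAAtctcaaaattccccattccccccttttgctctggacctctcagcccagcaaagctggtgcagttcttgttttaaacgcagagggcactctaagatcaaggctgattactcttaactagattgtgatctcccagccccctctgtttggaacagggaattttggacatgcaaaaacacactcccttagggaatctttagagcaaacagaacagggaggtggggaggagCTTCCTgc
C3: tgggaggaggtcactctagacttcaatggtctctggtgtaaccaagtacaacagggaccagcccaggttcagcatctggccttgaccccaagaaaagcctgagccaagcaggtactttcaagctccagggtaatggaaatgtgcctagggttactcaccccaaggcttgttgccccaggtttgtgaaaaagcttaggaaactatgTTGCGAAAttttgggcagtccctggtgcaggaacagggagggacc

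The ETS core occurred once in the C1qb window, ending 47 bases before the start, 2 times in the C1qc window and once in the C1s1 window. It occurred in 29.6% of all 32544 windows of 250 bases and in 12.05% of windows of 99 bases taken at the same place. The C/EBP core occurred in the C3 window, ending 38 bases before the start, and in the C1s1 window, against 9.58% of all windows of 250 bases. A match is a description of these letters only.

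The 7 libraries held 15047 barcodes with 200 to 6000 detected genes, 1133 to 4780 per mouse, with 962677 to 4471473 UMIs per mouse and a median of 527 to 694 UMIs per cell. Only 5 barcode sequences occurred in more than 1 library. Cells were assigned to 7 classes from summed UMIs of marker genes, none of them a complement gene, and a class needed at least 2 UMIs and at least 2 times every competing score. This gave 982 macrophages (Cd68, Csf1r, Aif1), 1119 fibroblasts (Col1a1, Col1a2, Dcn, Lum, Pdgfra), 3218 tumor cells (PyMT with Epcam, Krt8 and Krt18), 1130 hormone-sensing cells (Prlr, Esr1, Pgr and others), 1571 T/NK cells, 232 cells of a basal keratin class and 68 endothelial cells. Endothelial sums of at least 10 cells existed in 3 mice only, and those of the basal keratin and T/NK classes in 6.

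Further markers not used for the assignment had their highest median over mice in the class of their name for macrophages, fibroblasts, endothelial, tumor, hormone-sensing and T/NK cells. The macrophage list (Adgre1, Fcgr1, Mrc1, Cd14, Lyz2, Tyrobp, Ms4a7) summed to 15306 to 24816 counts per 1000000 UMIs (CPM) in the macrophage class and to at most 1299 CPM in tumor cells. The fibroblast list (Col3a1, Dpt, Mmp2, Fbln1, Serpinf1, Lox) summed to 15602.5 to 24075 CPM in fibroblasts and to at most 425 CPM in tumor cells. Some lists were also found elsewhere: the T/NK list reached 523 to 1331 CPM in fibroblasts against 3113 to 6923 CPM in T/NK cells, and the hormone-sensing list 1925 to 4959 CPM in fibroblasts against 5668 to 14946 CPM in hormone-sensing cells. The tumor list overlapped between tumor cells, at 30597 to 63655 CPM, and the basal keratin class, at 16193 to 47201 CPM. A dendritic list (Flt3, Xcr1, Cd209a, Ccr7, Zbtb46) had its highest median in T/NK cells, at 64.7 to 648 CPM with a median of 291 CPM, against 10.8 to 134 CPM in macrophages. The endothelial list summed to 3772 to 5279 CPM in endothelial cells, in which Fabp4, here on the adipocyte list, reached 4420.4 CPM in 1 of 3 mice while Adipoq and Plin1 were at 0. In the class intended to be myoepithelial (Krt5, Krt14, Krt17, Oxtr, Trp63) the median cell also held 10 UMIs of luminal genes, and Acta2, the smooth muscle actin of myoepithelial cells, ranged from 0 to 1977 CPM over mice. The myoepithelial checking list (Acta2, Mylk, Cnn1, Tagln, Myh11, Lamb3) had its highest median in this class. Its lowest, median and highest sums there were 41.7, 718 and 2966 CPM. Fibroblasts overlapped with it, at 157, 523 and 1953 CPM. Because luminal genes were also present and the list varied widely over mice, the class is called the basal keratin class. Of the macrophages 38.5% lay exactly at the 2-UMI minimum, as did 3.13% of the fibroblasts.

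C1q transcripts were concentrated in macrophages. Levels are given as CPM, the UMIs of a gene per 1000000 UMIs of all genes, summed over the cells of 1 class in 1 mouse. In macrophages C1qa had a lowest, median and highest level over the 7 mice of 3511, 3863 and 6049.9 CPM. C1qb, the B chain, had 4539.5, 5285 and 5747 CPM. C1qc, the C chain, had 3294, 3892 and 4199 CPM. No macrophage sum overlapped with a sum of any other class for any of the chains. The share of all genes separated in this way was not counted.

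Outside macrophages the class means over mice of C1qa lay between 12.04 CPM in the basal keratin class and 74.8 CPM in T/NK cells. Those of C1qb lay between 14.6 and 77.1 CPM, and those of C1qc between 4.77 and 92.2 CPM, with the endothelial value the highest for both but resting on 4 and 5 UMIs in 3 mice. Its place above the next class was not borne out by the fit (log2 -0.48, SE 1.09, adjusted p = 0.80 for C1qb against T/NK cells, with 2 shared mice, and log2 -0.12, SE 0.97, adjusted p = 0.96 for C1qc against fibroblasts). Barcodes under 200 genes, which can hold free RNA as well as small cells or cells with little RNA, had more: C1qa reached a lowest, median and highest level of 223, 386 and 1685 CPM there. In every mouse each of the 6 other classes lay below these barcodes for all 3 chains, so no C1q level outside macrophages is read as expression. The share of free RNA in these barcodes is not known. Their erythroid marker list summed to 3512 to 408936 CPM, and relative to all cells their level had a median ratio of 1.28 for C1qa but 0.349 for Serping1.

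The macrophage class was tested against the mean of the other 6 classes in 1 edgeR quasi-likelihood fit over 43 sums of a class in a mouse. The fit had a term for each mouse, and p-values were adjusted by the Benjamini-Hochberg method over the 5400 genes tested. These genes passed a filter on low counts that read the same sums, so a gene could enter through a class where it was high. C1qa was higher by 7.74 on the log2 scale (SE 0.23, adjusted p = 1.9e-33). C1qb was higher by 7.97 (SE 0.24, adjusted p = 4.9e-33) and C1qc by 7.77 (SE 0.24, adjusted p = 6.7e-33). Each was higher in 7 of 7 mice. Against the next class in the order of levels, C1qa differed by 6.50 from T/NK cells (SE 0.38, adjusted p = 2.4e-20), C1qb by 7.58 from endothelial cells (SE 0.71, adjusted p = 3.1e-12) and C1qc by 6.70 from endothelial cells (SE 0.67, adjusted p = 1.9e-11). Below macrophages, 1 of the 15 steps between neighbouring classes passed the test, C1qb in fibroblasts over tumor cells (log2 1.09, SE 0.43, adjusted p = 0.032), at levels under those of the barcodes with few genes.

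**Figure D1:**
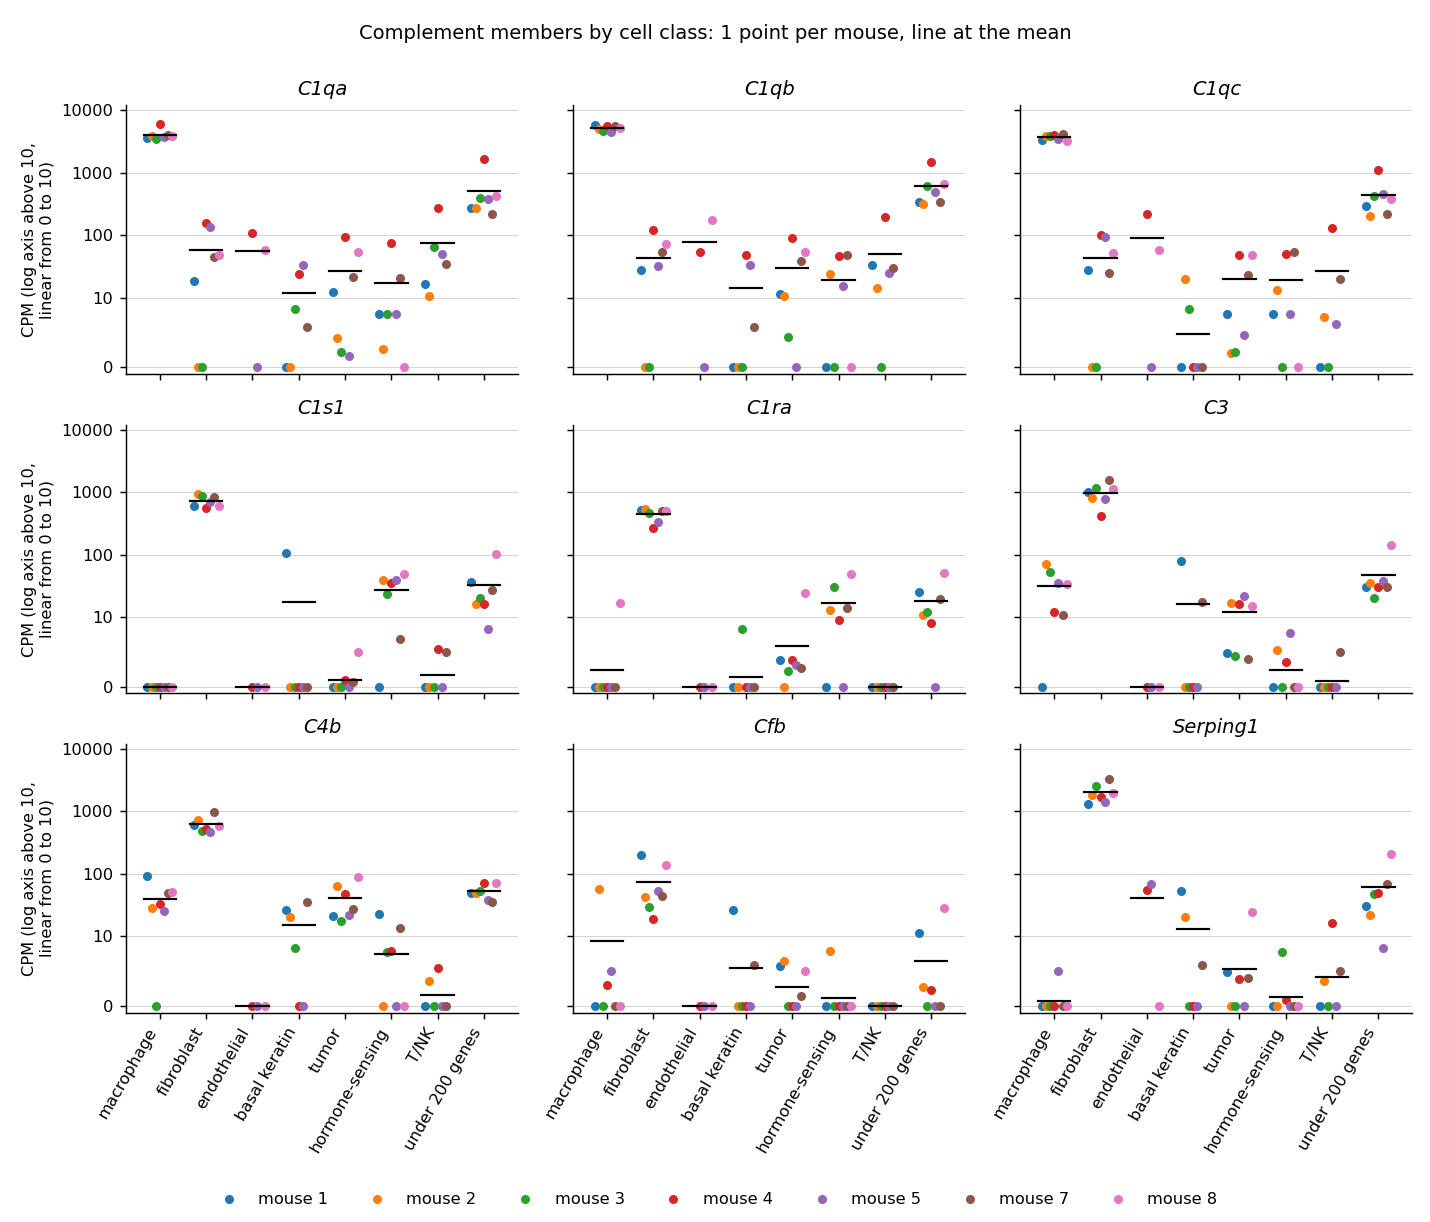
CPM of each of the 9 complement genes in 7 cell classes and in barcodes under 200 genes, 1 point per mouse and a line at the mean over mice, on an axis that is logarithmic above 10 CPM and linear below. The lowest C1q point of macrophages lies at 3294 CPM, and the fibroblast points of C1s1, C1ra, C3, C4b and Serping1 lie above those of every other class, whereas those of Cfb overlap with a macrophage and a basal keratin point.

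The proportion of the chains was much alike in macrophages and in barcodes under 200 genes. C1qa, C1qb and C1qc made up 33.4%, 38.6% and 28.0% of the C1q UMIs of macrophages. In barcodes under 200 genes the shares were 33.9%, 38.3% and 27.7%, and in tumor cells 35.04%, 40.6% and 24.3%. In UMIs pooled over mice, C1qa rather than C1qb was the largest share in the other 3 classes with over 100 C1q UMIs. In hormone-sensing cells this order rested on mouse 4, at 74.9 CPM of C1qa, and the median over mice was 7.71 CPM for C1qa and 15.5 CPM for C1qb. The medians kept the pooled order in fibroblasts (44.7 and 31.9 CPM) and T/NK cells (42.0 and 27.2 CPM). Fibroblasts (76, 70 and 58 UMIs) had 37.3%, 34.3% and 28.4%, hormone-sensing cells (93, 72 and 72 UMIs) 39.2%, 30.4% and 30.4%, and T/NK cells (70, 52 and 31 UMIs) 45.8%, 34.0% and 20.3%. Across the 43 sums, which share libraries and depth, the log2(CPM + 10) levels of the chains had Pearson correlations of 0.96 to 0.97 with each other.

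Most single macrophages held more than 1 chain. A C1q UMI was found in 91.3% of the 982 macrophages (exact 95% binomial interval 89.4% to 93.0%), which had a median of 746 UMIs. All 3 chains were found in 73.8%, 2 in 12.5%, 1 in 4.99% and none in 8.66%. The share with any C1q UMI was 4.26% in T/NK cells (median 456 UMIs), 5.07% in tumor cells (968), 5.90% in fibroblasts (695) and 9.38% in hormone-sensing cells (1176). Outside macrophages mouse 4 weighed most, with 92 of the 106 hormone-sensing and 88 of the 163 tumor cells that had a C1q UMI. Without mouse 4 the shares were 2.43% in T/NK cells, 3.10% in tumor cells, 3.81% in fibroblasts and 3.10% in hormone-sensing cells, and 91.0% in macrophages. Intervals here cover counting error only.

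Depth was then set equal by drawing 300 UMIs from each cell, which left out 27 macrophages and 152 tumor cells with fewer. All 3 chains were found in 42.7% of the thinned macrophages and none in 12.04%. A C1q UMI was found in 88.0% of thinned macrophages, 3.35% of fibroblasts, 3.16% of T/NK cells, 2.95% of hormone-sensing cells, 2.32% of tumor cells, 1.35% of the basal keratin class and 4.76% of 63 endothelial cells. Without mouse 4 these shares were 86.4%, 2.39%, 1.66%, 0.694%, 1.08%, 1.0101% and 5.26% in the same order, and the endothelial share was 2% without mouse 8. Every class other than macrophages thus stayed far below macrophages with or without mouse 4.

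The macrophage class did not take in all C1q UMIs. Of the C1qa UMIs in all barcodes 49.7% were in macrophages, 15.6% in barcodes under 200 genes and 26.2% in 3482 cells in which no marker score reached 2 UMIs, a group that held 8.91% of the UMIs of all genes. In that group C1qa had a lowest, median and highest level of 277, 1390.1 and 2362 CPM, between the macrophages and the other classes. C1qb and C1qc had 26.6% and 24.6% of their UMIs there. For the 6 other genes this share was 0.442% to 6.95%. Which cells these are was not tested.

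**Figure D2:**
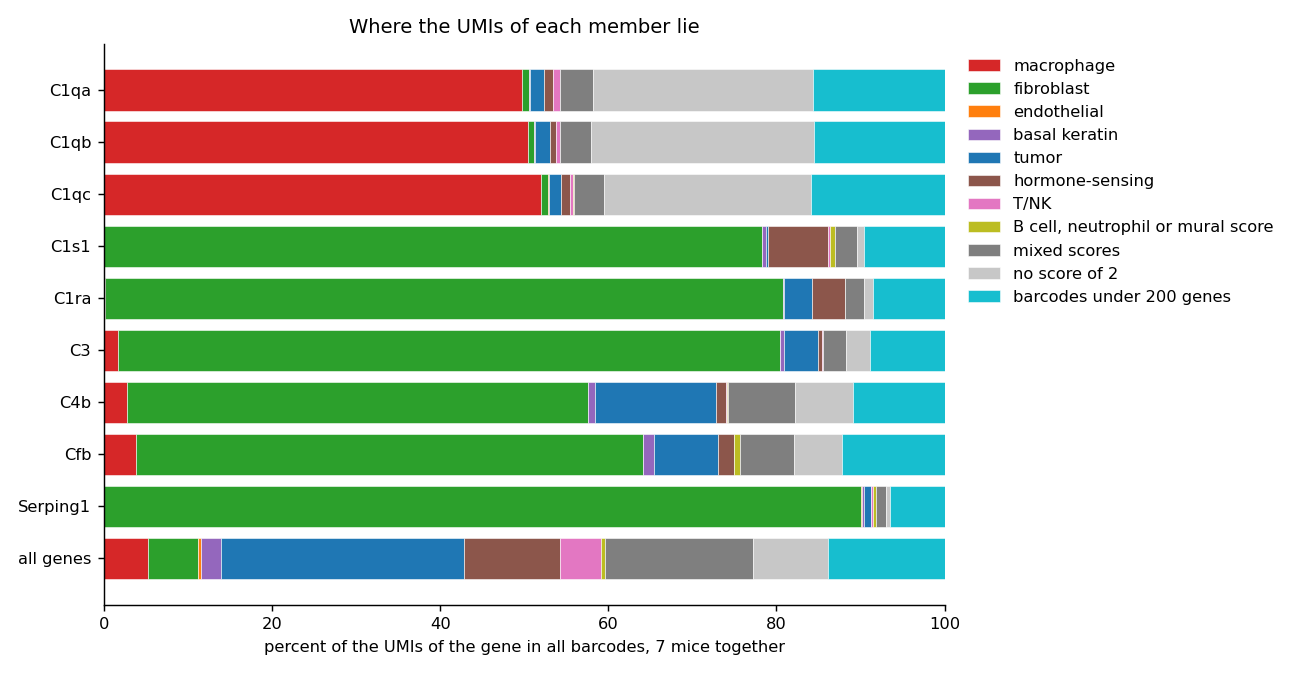
Share of the UMIs of each gene, in percent over the 7 mice together, that lay in each cell class, in cells with mixed scores or no score of 2 UMIs, and in barcodes under 200 genes, with all genes as the bottom bar. Macrophages hold 49.7% to 52.0% of the C1q UMIs and fibroblasts 54.8% to 90.1% of those of the other 6 genes, against 5.29% and 5.88% of all UMIs.

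Fibroblasts carried the other members. C1s1 encodes the protease C1s, and its fibroblast level was 549.7, 681 and 926 CPM (lowest, median and highest of 7 mice). C1ra encodes C1r, which activates C1s, and had 270.2, 506 and 527 CPM. Serping1, the inhibitor of both, had 1308, 1796 and 3324 CPM. In all 3 genes the lowest fibroblast sum lay above the highest sum of every other class. How many of all genes were separated from the other classes in this way was not counted.

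The convertase components also had their highest mean in fibroblasts, with a different order among the other classes. C3, the central component, had a fibroblast level of 415, 999.7 and 1533 CPM. C4b, which forms the classical convertase, had 469, 581 and 972 CPM. Cfb, the protease of the alternative convertase, was far lower, with 18.6, 44.7 and 196 CPM. The fibroblast sums of C3 and C4b lay above all sums of other classes, again without a count over all genes. Those of Cfb overlapped with the macrophage sum of mouse 2 at 57.2 CPM and the basal keratin sum of mouse 1 at 26.4 CPM.

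In the same edgeR fit the fibroblast class was higher than the mean of the other 6 classes for each of the 5 genes tested. As with C1q in macrophages, these genes could have passed the filter through the sums of their leading class. The log2 difference was 8.75 for Serping1 (SE 0.22, adjusted p = 5.3e-37), 7.66 for C3 (SE 0.28, adjusted p = 3.0e-29) and 6.38 for C4b (SE 0.25, adjusted p = 8.4e-28). It was 8.32 for C1s1 (SE 0.29, adjusted p = 1.0e-27) and 7.84 for C1ra (SE 0.29, adjusted p = 4.6e-27). Where a class had no UMI these fitted values depend on the prior count, so a bound was taken against 3 UMIs over the class. C1s1 had 0 UMIs in 982 macrophages, and its pooled fibroblast level of 667 CPM was at least 217-fold higher than that bound. C1ra had 0 UMIs in T/NK cells and was at least 134-fold higher in fibroblasts.

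Cfb did not pass the filter on low counts and was tested by an exact two-sided sign-flip permutation test over mice on log2(CPM + 10). Fibroblasts exceeded the mean of the other classes by 2.49 ± 0.98 (SD, n = 7), in 7 of 7 mice (exact p = 0.015625, which is the lowest value reachable over 7 mice). In the settings in which Cfb passed the filter, edgeR also called it higher in fibroblasts. This is no independent support, since the filter reads the same sums and fibroblasts held 60.3% of the Cfb UMIs of all barcodes. The lower mean than for the other 5 genes goes with 94 UMIs in all fibroblasts.

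The step from fibroblasts to the next class passed the test for each of the 5 genes. C1s1 differed by 4.78 from hormone-sensing cells (SE 0.29, adjusted p = 2.0e-18) and C1ra by 5.15 from the same class (SE 0.30, adjusted p = 1.8e-19). C3 differed by 5.04 from macrophages (SE 0.35, adjusted p = 1.4e-17), C4b by 4.21 from tumor cells (SE 0.23, adjusted p = 1.2e-21) and Serping1 by 6.29 from endothelial cells (SE 0.65, adjusted p = 6.7e-11). The endothelial Serping1 level rested on 3 UMIs in 68 cells, with 1 of 3 mice at 0, so its place as the next class is uncertain. For these steps and the C1q steps, the share of the 5400 genes called in the same direction was 20.9% for macrophages over T/NK cells, 15.7% for macrophages over endothelial cells, 25.0% for fibroblasts over hormone-sensing cells, 25.4% for fibroblasts over macrophages, 24.8% for fibroblasts over tumor cells and 13.4% for fibroblasts over endothelial cells. All 8 genes tested were called. The order of the classes was read from the same sums, so the direction of these steps was set beforehand. The 5400 genes were not chosen in that way, and their shares are no measure of enrichment.

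Fibroblast levels also varied between mice, and not in the same way for each gene. Mouse 4 had the lowest sum of C1s1, C1ra, C3 and Cfb, and mouse 7 the highest of C3, C4b and Serping1. Cfb varied most, with its highest level in mouse 1 and 140 CPM in mouse 8 against at most 53.2 CPM in the other 5. The libraries titled CB (mice 1 to 4) and WT (mice 5, 7 and 8) overlapped in the leading class for all 9 genes. Serping1 for example ranged from 1308 to 2567 CPM in the former and from 1384 to 3324 CPM in the latter.

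Within fibroblasts a UMI of C3 or C1ra was more frequent in cells that held a UMI of C4b or C1s1. A UMI of Serping1 was found in 62.2% of the 1119 fibroblasts (exact 95% interval 59.3% to 65.0%), of C1s1 in 38.2%, of C3 in 35.7%, of C4b in 31.5%, of C1ra in 28.8% and of Cfb in 6.43%. At 300 UMIs per cell, which left out 104 fibroblasts, these shares were 41.4%, 19.8%, 22.5%, 15.7%, 12.4% and 2.66%. C3 was then found in 46.5% of the 159 fibroblasts with a C4b UMI and in 17.99% of those without. C1ra was found in 18.9% of the 201 fibroblasts with a C1s1 UMI and in 10.8% of those without. None of the 6 genes was found in 35.8% of the thinned fibroblasts, 1 in 32.2%, and 2 or more in the rest. These are shares of pooled cells and carry no test.

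**Figure D3:**
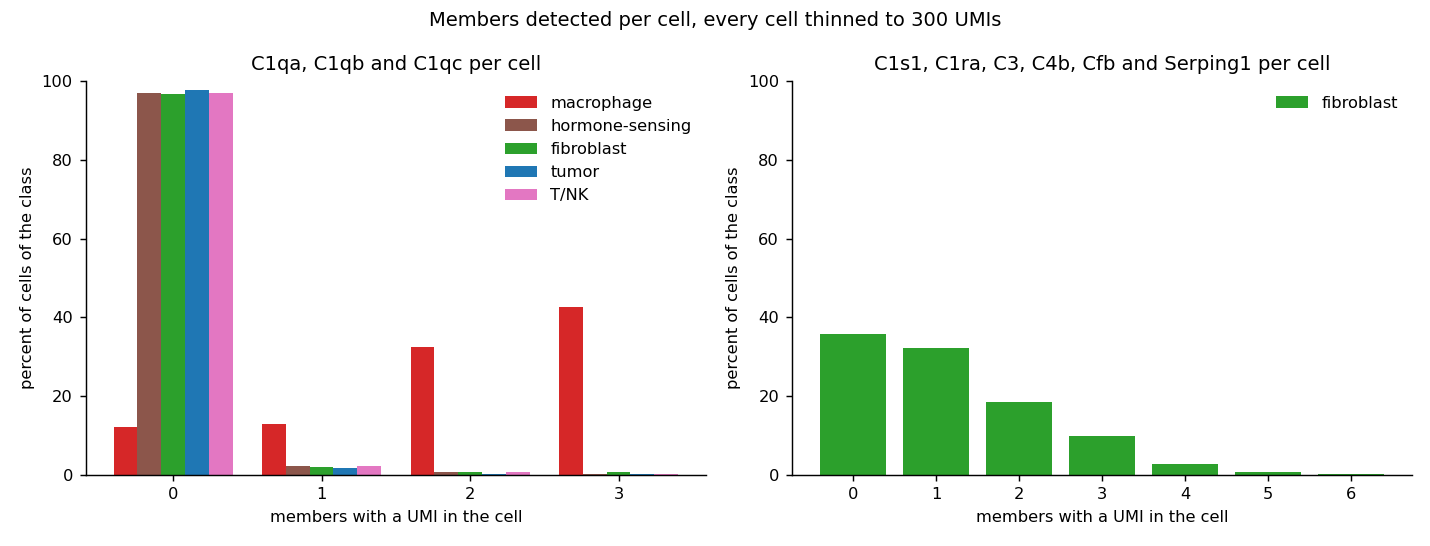
Left, percent of cells with 0 to 3 of the C1q genes in 5 classes, and right, percent of fibroblasts with 0 to 6 of the other genes, with every cell thinned to 300 UMIs. All 3 chains are found in 42.7% of macrophages, while any chain is found in at most 3.35% of the cells of the 4 other classes drawn.

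At much lower levels, C1s1 and C1ra were higher in hormone-sensing cells than in tumor cells. Hormone-sensing cells are the luminal cells that carry estrogen, progesterone and prolactin receptors. Their C1s1 level was 0, 34.8 and 49.1 CPM (lowest, median and highest of 7 mice), against 0, 0 and 4.94 CPM in tumor cells. The difference was 4.70 on the log2 scale (edgeR, SE 0.57, adjusted p = 5.6e-09), with hormone-sensing cells higher in 6 of 7 mice and both classes at 0 in mouse 1. A C1s1 UMI was found in 4.34% of hormone-sensing cells (exact 95% interval 3.22% to 5.69%) and in 0.0932% of tumor cells (0.0192% to 0.272%). In thinned cells the shares were 1.2% and 0 of 3066, the latter with an upper 95% bound of 0.120%.

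C1ra was higher in hormone-sensing than in tumor cells by 1.59 (SE 0.48, adjusted p = 0.0096), with levels of 0, 13.2 and 49.1 CPM against 0, 3.14 and 24.7 CPM, in 5 of 7 mice. The call was lost without mouse 3 (log2 1.34, adjusted p = 0.064) and without mouse 4 (log2 1.59, adjusted p = 0.055). Both genes were lower in these cells than in fibroblasts, as given above, and neither stood clear of the barcodes under 200 genes: C1s1 in hormone-sensing cells was above them in 4 of 7 mice and C1ra in 3 of 7. The fibroblast marker list summed to 7.71 to 122.7 CPM in hormone-sensing cells and to 17.3 to 425 CPM in tumor cells, with the highest value of both in mouse 8, and the part of fibroblast RNA in these levels was not tested.

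C4b went the other way. Its level was 17.8, 27.2 and 88.9 CPM in tumor cells against 0, 7.71 and 22.9 CPM in hormone-sensing cells, a difference of 2.38 (edgeR, SE 0.42, adjusted p = 1.1e-05), higher in tumor cells in 6 of 7 mice. A C4b UMI was found in 4.75% of tumor cells and in 1.24% of hormone-sensing cells. Barcodes under 200 genes had 35.8 to 72.3 CPM of C4b, and tumor cells were above them in 2 of 7 mice. C3 was higher in tumor than in hormone-sensing cells in 7 of 7 mice, at means of 11.9 and 2.36 CPM, but did not pass the adjusted threshold (log2 1.46, SE 0.65, adjusted p = 0.088). In all, tumor cells were higher for 1 and lower for 2 of the 8 genes tested, and of all 5400 genes 15.3% were higher and 12.2% lower.

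In macrophages C3 and C4b were low but above T/NK cells. C4b had 0, 32.8 and 92.1 CPM in macrophages and at most 5.45 CPM in T/NK cells (log2 3.96, SE 0.78, adjusted p = 3.6e-05). C3 had 0, 33.4 and 71.6 CPM in macrophages (log2 4.18 over T/NK cells, SE 1.07, adjusted p = 0.0011). Both lay above the barcodes under 200 genes in 2 of 7 mice. Macrophages did not differ from tumor cells in C4b beyond the spread (log2 0.24, SE 0.36, adjusted p = 0.61), and held 1 UMI each of C1ra and Serping1.

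The filter on low counts read the same sums as the tests, so a gene can pass it through the class in which it is high. Which of the members passed in that way was not tested, and the counts below are no independent support. Counted over classes, the 8 genes that passed the filter were called as follows. In fibroblasts 5 of 8 were higher and 0 lower, where 26.2% and 8.22% of all genes were. In macrophages 4 were higher and 1 lower (23.9% and 12.1% of all genes), the fourth being C4b (log2 1.74, SE 0.63, adjusted p = 0.024). In tumor cells 1 was higher and 4 lower (26.9% and 9.20%), and in hormone-sensing cells 2 were higher and 4 lower (24.5% and 10%). The basal keratin class had 0 higher and 3 lower (13.7% and 4.04%). The lower gene in macrophages was Serping1 (log2 -3.27, SE 1.02, adjusted p = 0.0086). In tumor cells, hormone-sensing cells and the basal keratin class the lower genes were the 3 C1q chains, with Serping1 also in tumor and hormone-sensing cells. The mean of the other classes held the macrophages for C1q and the fibroblasts for Serping1, so these calls repeat the high levels there. Endothelial cells had 0 in either direction (5.67% and 6.57%), and so did T/NK cells (27.6% and 16.9%).

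The counts of 0 were also 0 at an unadjusted p under 0.05 in edgeR. DESeq2 gave 0 as well, other than for T/NK cells, in which it called 3 genes lower. edgeR gave no usable standard error for some members near 0, such as C1ra in T/NK cells (log2 -3.54). A count of 0 lower there does not show that no member was lower. By exact sign-flip permutation on log2(CPM + 10), C1s1, C1ra, C3, C4b, Cfb and Serping1 were lower in T/NK cells, with 0 of 6 mice higher (p = 0.03125 each). That is the smallest value over 6 mice, and the C1q chains did not reach 0.05 (p 0.0625 to 0.41). The mean of the other classes held the fibroblasts, which were high in these genes. A class near 0 falls below it in every mouse, so these p-values repeat the fibroblast levels. The mean in these contrasts is one of fitted log2 levels, which classes at or near 0 pull down. On log2(CPM + 10), C4b in macrophages differed from the mean of the other classes by 0.09 ± 0.92 (exact sign-flip permutation p = 0.80) and in tumor cells by 0.27 ± 0.82 (p = 0.39), and in hormone-sensing cells C1s1 differed by 0.31 ± 1.17 (p = 0.50) and C1ra by -0.13 ± 0.69 (p = 0.63, SD, n = 7 for each), so that none of these 4 higher calls held on that scale. They also depended on the processing: over 18 alternatives C4b was called higher in tumor cells in 6 (adjusted p 0.0025 to 0.16, lost without mouse 2, 4 or 8), C4b in macrophages in 9 (0.011 to 0.39, lost without mouse 4 or 5) and C1ra in hormone-sensing cells in 6 (0.025 to 0.94, log2 -0.14 to 2.06, lost without mouse 2, 3, 4 or 7). C1s1 in hormone-sensing cells was called in 16 (1.9e-06 to 0.54).

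Splitting the macrophages by Mrc1, the mannose receptor, gave no call for C1q. In the 5 mice with at least 10 cells on each side, 122 macrophages had a Mrc1 UMI and 727 had none. C1qb had a lowest, median and highest level of 5366, 6412 and 7201 CPM with Mrc1 and of 4187, 5424 and 5894 CPM without, higher with Mrc1 in 4 of 5 mice (edgeR, log2 0.37, SE 0.17, adjusted p = 0.31). C1qa was higher in 5 of 5 mice (log2 0.29, SE 0.17, adjusted p = 0.38) and C1qc in 3 of 5 (log2 0.26, SE 0.18, adjusted p = 0.47). Of the 3 members tested 0 were called, also at an unadjusted p under 0.05 and by DESeq2, while 3.62% of 580 genes were higher and 0.690% lower.

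C4b did not pass the filter in that split and rested on 33 UMIs. It had 65.7, 135.8 and 199 CPM in macrophages with a Mrc1 UMI and 11.7, 26.2 and 51.0 CPM in those without, with no overlap between the sides. How many of all genes were separated in this way was not counted, and C4b was picked among the members after its values were seen. The difference on log2(CPM + 10) was 1.82 ± 0.79 (SD, n = 5), in the same direction in 5 of 5 mice (exact sign-flip permutation p = 0.0625, the smallest that 5 mice allow, so the design cannot reach 0.05). With Mrc1 the level was above that of the barcodes under 200 genes in 4 of 5 mice. The part of RNA from other cells in these levels was not tested.

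Splitting the tumor cells by a UMI of the acute phase genes Saa1 or Saa2 gave no call either. C4b had 23.5, 32.8 and 63.9 CPM in the 693 cells with such a UMI and 10.3, 30.7 and 107 CPM in the 2525 without (edgeR, log2 difference -0.23, SE 0.30, adjusted p = 0.91). Both sides overlapped over the 7 mice. C1qb was the other member tested (log2 -0.21, SE 0.36, adjusted p = 0.96), at levels below those of the barcodes under 200 genes. Of the 2 members tested 0 were called, also at an unadjusted p under 0.05 and by DESeq2, where 0.382% of 5230 genes were higher and 0.172% lower.

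Other genes of the complement system were distributed over more classes. Of 43 listed, 38 had a UMI and 15 passed the filter, which read the same sums as the tests. In macrophages 8 of the 15 were higher and 2 lower, where 23.9% and 12.1% of all genes were, with a median log2 difference of 2.52 against 0.02 for all genes. These include the anaphylatoxin receptors C3ar1 (mean 256 CPM, log2 7.52, SE 0.37, adjusted p = 1.9e-22) and C5ar1 (217 CPM, log2 7.33, SE 0.39, adjusted p = 6.4e-21), and Itgb2, the beta chain of complement receptor integrins (192 CPM, log2 5.95, SE 0.35, adjusted p = 1.4e-19). Itgax, Itgam, Cfp and Cd93 were also higher.

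In fibroblasts 6 of the 15 were higher and 1 lower (26.2% and 8.22% of all genes), with a median of 0.01 against 0.13 for all genes. The recognition molecule Colec12 had a mean of 168 CPM (log2 7.34, SE 0.40, adjusted p = 1.8e-19) and C2, the partner of C4 in the classical convertase, 103 CPM (log2 5.03, SE 0.42, adjusted p = 7.3e-15). C2 was thus higher in fibroblasts along with C4b. Cd55, Cd59a and Cr1l were also higher, which encode regulators on the cell surface.

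The genes that were higher in the epithelial classes included regulators. Clu, a secreted chaperone that also restrains the terminal pathway, had means of 2236 CPM in hormone-sensing cells (log2 3.67, SE 0.20, adjusted p = 1.4e-21), 1436 CPM in the basal keratin class (log2 2.75, SE 0.24, adjusted p = 9.0e-14) and 812 CPM in tumor cells (log2 2.06, SE 0.21, adjusted p = 7.2e-12). Cd59a, which blocks the membrane attack complex, was higher in tumor cells (127 CPM, log2 2.37, SE 0.26, adjusted p = 8.8e-11) and in the basal keratin class (96.0 CPM, log2 1.90, SE 0.43, adjusted p = 6.1e-04). Cd55, which dissociates convertases, was higher in tumor cells (90.2 CPM, log2 1.32, SE 0.24, adjusted p = 1.4e-05), as was C1qbp. C2 was higher in hormone-sensing cells as well (13.6 CPM, log2 1.75, SE 0.67, adjusted p = 0.035). That level was low, at 0 to 30.8 CPM over mice with 33 UMIs in all, against a mean of 103 CPM in fibroblasts. It was not compared with the barcodes under 200 genes, and the part of fibroblast RNA in it was not tested. Whether this C2 call holds under other processing or on another scale of levels was not tested either.

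Of the 15 genes, tumor cells had 4 higher and 1 lower (26.9% and 9.20% of all genes), hormone-sensing cells 2 and 4 (24.5% and 10%), and the basal keratin class 2 and 2 (13.7% and 4.04%). The share that was higher was thus near that of all genes in tumor cells and the basal keratin class and below it in hormone-sensing cells. Endothelial cells had 1 higher, Cd93, a surface receptor with a mean of 657 CPM there (log2 7.07, SE 0.51, adjusted p = 1.3e-15), and 0 lower (5.67% and 6.57% of all genes). T/NK cells had 2 higher, Itgb2 (132 CPM, log2 5.38, SE 0.40, adjusted p = 9.3e-16) and Itgax (23.5 CPM, log2 2.10, SE 0.49, adjusted p = 4.1e-04), and 3 lower (27.6% and 16.9% of all genes). The dendritic list was also highest in this class, and the part of dendritic cells in the Itgax level was not tested. No gene of the terminal pathway passed the filter, with 121 UMIs of Hc, which encodes C5, 67 of C9 and at most 20 of each of the others in all cells.

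**Figure D4:**
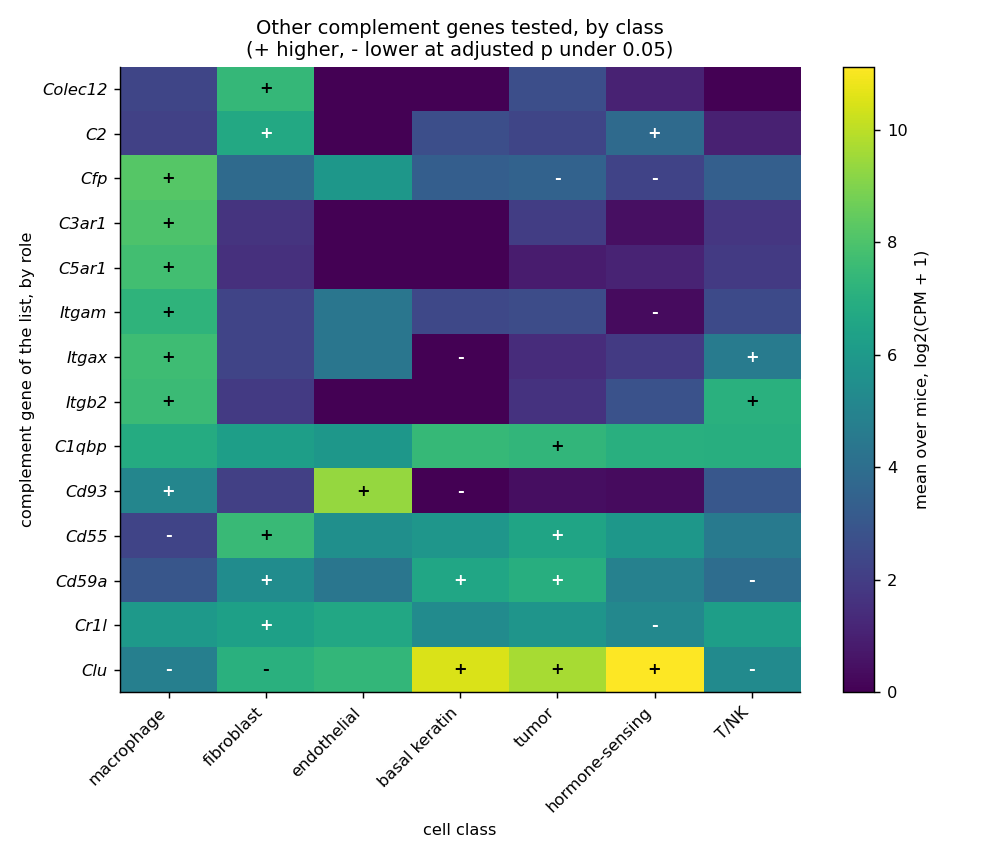
Mean CPM over mice, as log2(CPM + 1), of other complement genes tested, in rows ordered by role, in 7 cell classes, with a plus or minus sign where the class was higher or lower than the mean of the other 6 at an adjusted p under 0.05. Receptors stand out in macrophages, Colec12 and C2 in fibroblasts, and Clu in the epithelial classes.

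Finally, the genes whose levels followed each member most closely over the 43 sums were ranked by Pearson correlation of log2(CPM + 10) among 5362 genes that left out the 9 members and the markers used to assign the classes, as a description in which the sums share libraries and cell classes. Outside the members C1qa and C1qc had the same 3 nearest genes, Ms4a7 (0.96 and 0.98), Il1b (0.95 and 0.97) and Fcgr2b (0.95 for both). C1qb was nearest to Il1b (0.96), Cybb (0.96) and Slamf9 (0.95). C1s1 was nearest to Pcolce (0.95), C1ra to Col6a3 (0.96), C3 to Htra3 (0.96), C4b to Col14a1 (0.91), Cfb to Clec3b (0.86) and Serping1 to Fibin (0.96). The C1q chains had correlations of 0.96 to 0.97 with each other, and Cfb was nearer to C3 (0.89) than to Clec3b. The members other than C1q had correlations of 0.77 to 0.93 with each other and of -0.23 to 0.11 with the C1q chains.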

How the data were processed

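Drop-seq libraries from 7 control tumors (1 mouse each) were analysed from the deposited counts. By the study's methods, the authors used mm10, extended by the PyMT sequence, as alignment reference and counted UMIs per gene and barcode, without batch correction. The submitters' processing notes name STAR and FastQC and, in conflict with mm10, GRCh37.p13 and hg19. Mitochondrial genes were still listed in 2 of the 7 matrices and were dropped. A barcode counted as a cell if it had 200 to 6000 genes. No doublet caller was run, and cells whose class score was under 2 times a competing score were left out of the classes (3088 cells). B cells, neutrophils and mural cells (157 cells) were not compared.

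UMIs were summed per mouse and class, with at least 10 cells per sum, and fitted in edgeR 4.0.16 (R 4.3.3) by the quasi-likelihood test with TMM, filterByExpr and the mouse as block, since all classes of a mouse come from 1 library. Standard errors were derived from the F statistic. Each class was contrasted with the unweighted mean of the other 6, and pairs of classes were contrasted in the same fit. P-values were adjusted across every gene that passed the filter, at a threshold of 0.05. DESeq2 1.42.0, other thresholds, each title series alone and leaving out each mouse were tried as alternatives. Single values were tested by exact sign-flip permutation over mice (all sign patterns, Python 3.11.15), with a pseudocount of 10 CPM. Exact binomial intervals were taken from scipy 1.17.1. Scripts were tested on simulated data. The members, the 43 other complement genes and the markers were chosen with earlier results of these data known. The text names all 9 members and up to 3 other complement genes with the largest difference among those higher in each class. It also names the 3 genes most like each C1q chain and the 1 gene most like each other member. The values of 1 of these other genes are not reported here. The further genes named as higher in macrophages, fibroblasts and tumor cells complete those counts and were chosen after their values were seen, as was C4b in the Mrc1 split. Depth was 962677 to 4471473 UMIs per mouse, and intervals cover counting error only.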

Additional observations from a re-analysis of the deposited data

Results flagged for a closer look

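In 33 groups of a gene in a class, the highest and lowest mice were set against the rest by Dixon's criterion at the 95% level, and 7 groups had a mouse that stood apart, all of them high. Chance gives about 5% of groups only if the values are normal and the groups independent. CPM of low counts need not be normal, and the C1q chains rise and fall together, so the 7 groups are not compared with that share.

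Mouse 4 stood apart in 5 of these. Its macrophages had 6049.9 CPM of C1qa, with the next mouse at 4079.7 CPM, whereas C1qb and C1qc did not stand apart there. Its T/NK cells had 273 CPM of C1qa, 196 CPM of C1qb and 131 CPM of C1qc, against at most 64.7, 33.1 and 19.7 CPM in the other 5 mice. Its hormone-sensing cells had 74.9 CPM of C1qa, against at most 20.6 CPM elsewhere. Barcodes under 200 genes of the same mouse held 1685 CPM of C1qa, the highest of the 7, and the macrophage marker list summed to 1009 CPM in its T/NK cells, against 232 to 841 CPM in the other mice. In its hormone-sensing cells the same list summed to 370.3 CPM, below the 584 CPM of mouse 7 and the 389.9 CPM of mouse 1. The part of macrophage RNA in these levels was not tested.

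Mouse 8 stood apart in the other 2, with 24.7 CPM each of C1ra and Serping1 in tumor cells, against at most 3.86 and 4.80 CPM in the other mice. The fibroblast marker list summed to 425 CPM in its tumor cells, against 17.3 to 39.6 CPM elsewhere, and 418 of its 1133 cells were fibroblasts. The part of fibroblast RNA in these levels was not tested.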

How the results depend on the processing

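The leading class of C1qa, C1qb, C1qc, C1s1, C1ra, C3, C4b and Serping1 kept its direction and call under all 18 alternatives, with log2 differences from 5.19 for C4b to 9.51 for Serping1. Cfb was called in fibroblasts in the 7 alternatives in which it passed the filter (log2 4.25 to 5.27), a filter that reads the same sums. The step from the leading class to the next, added after seeing the data, was called for all 8 genes in the 16 alternatives that held every class, as were C1s1 (log2 at least 2.10) and C4b (at least 1.12) between tumor and hormone-sensing cells in 18 of 18.

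Counts of members called against the mean of the other 6 classes moved most. Members lower in macrophages (1) numbered 0 with at least 500 genes per cell and in the WT series, 3 in DESeq2, 2 without endothelial sums (added after seeing the data) and 0 to 1 with a mouse left out. Members higher in tumor cells (1) numbered 0 with at least 3 UMIs per class, no competing scores, at least 500 genes, at least 20 cells per sum, DESeq2, its size factors, either title series or no endothelial sums, and 0 to 1 with a mouse left out. Members lower in tumor cells (4) numbered 1 with at least 3 UMIs and in the WT series, 2 with at least 20 cells and in the CB series, and 2 to 4 with a mouse left out. Members higher in hormone-sensing cells (2) numbered 0 with no competing scores and in DESeq2, 1 with at least 500 genes, at least 20 cells, DESeq2 size factors or either title series, and 1 to 2 with a mouse left out. Members lower there (4) numbered 2 with at least 3 UMIs and in the CB series, and 0 in the WT series. Members lower in T/NK cells (0) numbered 2 with at least 500 genes, 3 in DESeq2 and 3 without endothelial sums. These counts stand without the share of all genes called in each setting, so a moved count is no result about the members. The cause of these changes was not tested.

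Without the mouse as block, members lower in tumor cells numbered 2, members higher in hormone-sensing cells 1 and members lower there 2, and no other count of members moved by over 1.5 times. C1ra in hormone-sensing over tumor cells was not called with no competing scores (log2 0.69, adjusted p = 0.37), with no filter (1.45, 0.053) or in the WT series (1.09, 0.65). After thinning to 300 UMIs the shares of cells with a C1q UMI were 88.0% in macrophages, 3.35% in fibroblasts, 1.35% in the basal keratin class, 2.32% in tumor cells, 2.95% in hormone-sensing cells and 3.16% in T/NK cells. With a mouse left out (added after seeing the data) the unthinned shares were 3.81% to 6.56% in fibroblasts, 3.1% to 5.68% in tumor cells, 3.1% to 10.1% in hormone-sensing cells, 2.43% to 4.91% in T/NK cells, and the thinned shares 1.08% to 2.57% in tumor cells, 0.694% to 3.2% in hormone-sensing cells, 1.66% to 3.81% in T/NK cells, each lowest without mouse 4.

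The 68 endothelial cells of all mice set a floor of 50.1 CPM, so members at lower levels there were not detectable at this depth, and all 7 libraries are of 1 group, so that nothing here compares conditions.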
